A study of Saccharomyces cerevisiae with 7 samples.

Results

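The genes described here encode the proteins of the small ribosomal subunit of Saccharomyces cerevisiae, chosen by name: every gene whose standard name is RPS followed by a digit. The annotation of transcripts deposited with the series listed 56 of them, out of 3000 protein-coding genes and 3196 transcripts in all, and the reference genome has the same 56 names. They fell into 32 families, of which 8 have a single gene and 24 have an A and a B copy. The series itself holds 4 libraries of RNA cleaved with RNase V1, an enzyme that cuts base-paired RNA, and 3 cleaved with nuclease S1, which cuts unpaired RNA. Yeast of a strain the labels do not name grew in log phase at 23 °C for both groups, and their polyA-selected RNA was refolded in vitro with 10 mM magnesium and 100 mM KCl before a 15 min digestion. No cleavage values were analysed here, and nothing below compares the nucleases. What was analysed is where each transcript, coding exon, 5' untranslated region (UTR) and 3' UTR lies, and a length is its end minus its start plus 1. Each gene has 1 listed structure and no replicate, so counts and medians are given as descriptions with no test. Intervals are 95% exact (Clopper-Pearson) for shares, at least 95% for medians from ranks, and they cover counting over genes only. They count the A and B copies of a pair as separate genes, so they are too narrow for features that copies share.

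The small subunit binds mRNA, scans for the start codon and decodes it, and each of its proteins sits on the small subunit rRNA in 1 copy per ribosome. Ribosomal protein genes are among the most transcribed genes of growing yeast, and they hold most of the spliced RNA of a yeast cell because so many of them carry an intron. Splicing needs a donor sequence at the start of the intron, a branch point near its end and an AG at its last bases, and in yeast the common forms of the first and second are GTATGT and TACTAAC. Most of these genes are present as pairs left by an ancient duplication of the genome, whose proteins are identical or nearly so while the UTRs and introns have had time to diverge.

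All 56 transcripts were listed with both UTRs, and in all 56 the UTRs, coding exons and intron summed to the transcript. The structures took 3 forms. In the first, 36 genes had an intron inside the coding region. In the second, 8 genes had no coding intron but a 5' UTR above 300 nt that held a splice donor sequence, and RPS22B had both. The remaining 12 genes had neither, and these were 7 of the 8 single genes, among them RPS2, RPS3, RPS12, RPS15, RPS20 and RPS31, and 5 of the 48 duplicated genes (RPS1A, RPS1B, RPS22A, RPS28A and RPS28B).

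**Figure D1:**
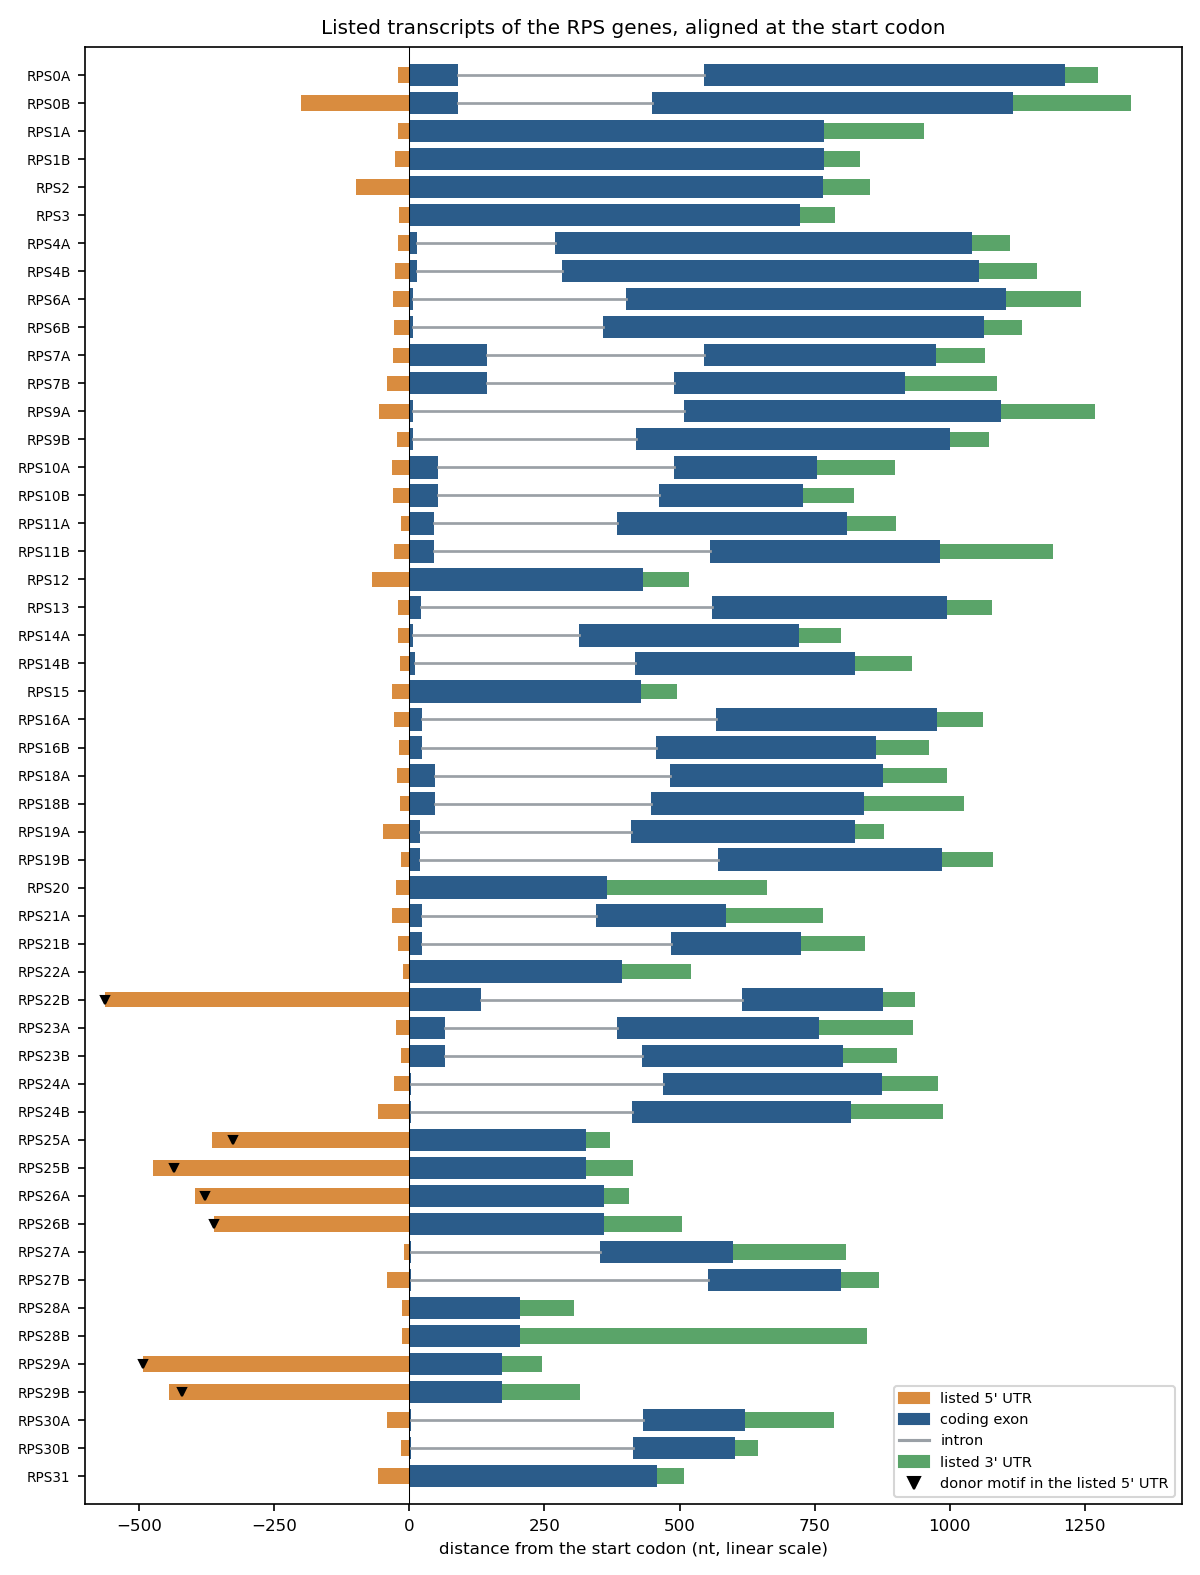
Listed transcripts of 51 RPS genes, 1 per row, drawn from the start codon at 0 along a linear axis in nt: 5' UTR (orange), coding exons (blue), intron (grey line) and 3' UTR (green), with a triangle at each splice donor motif inside a listed 5' UTR. Introns start close to the start codon, and the 7 longest 5' UTRs drawn, from 362 to 564 nt, all carry a triangle.

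The 5' UTRs were either short or very long. The median was 28 nt (95% interval 23 to 33 nt, quartiles 21 and 56.5 nt) over the 56 RPS mRNAs and 50 nt (49 to 52 nt) over all 2679 mRNAs with a listed 5' UTR. Among RPS mRNAs 41 of 56 (73.2%, 59.7 to 84.2%) lay below that median of all mRNAs, as did 49.1% of all mRNAs. A 5' UTR of at most 30 nt was listed for 31 of 56 RPS mRNAs (55.4%), against 25.3% of all mRNAs. At the other end, 9 of 56 RPS mRNAs (16.1%, 7.62 to 28.3%) had a 5' UTR above 300 nt, against 2.84% of all mRNAs. Between 100 and 300 nt there was 1 member, RPS0B, at 200 nt. The proteins of the large subunit, RPL, had a median 5' UTR of 26 nt (24 to 28 nt, 78 mRNAs), and 4 of these 78 (5.13%) exceeded 300 nt.

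**Figure D2:**
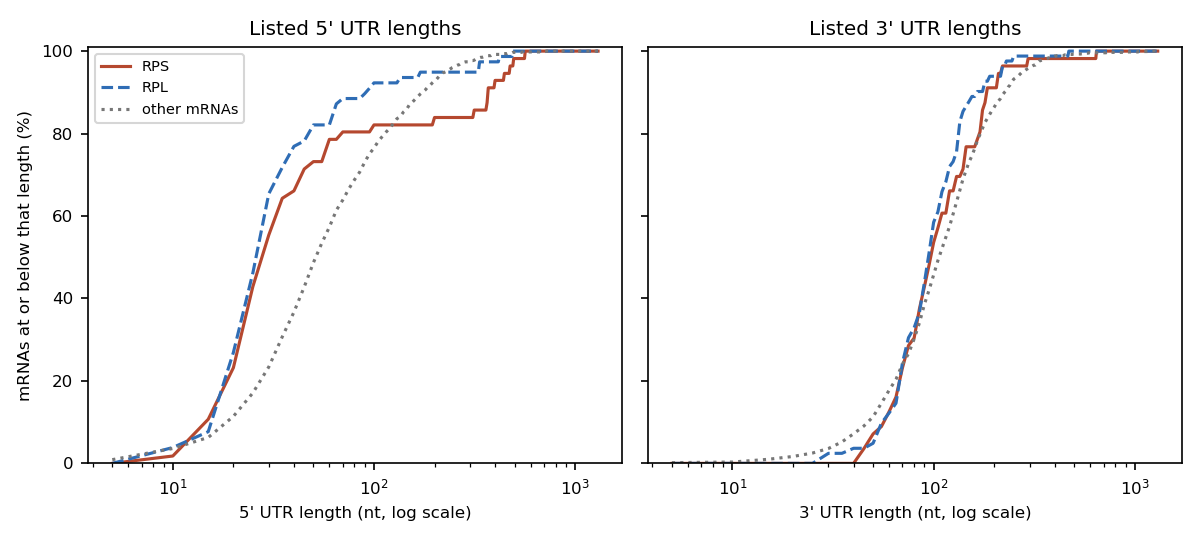
Percentage of mRNAs (vertical axis) whose listed 5' UTR (left) or 3' UTR (right) is at or below a length in nt (horizontal axis, log scale), for RPS genes (solid), RPL genes (dashed) and other mRNAs, of neither group (dotted). The RPS curve at the 5' end passes 55.4% at 30 nt, stays at 82.1% and 83.9% between 100 and 300 nt and climbs again only above that, while at the 3' end RPS stands at 76.8% at 150 nt, RPL at 87.8% and other mRNAs at 73.1%.

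The shortest 5' UTR was that of RPS27A, a zinc-binding protein, at 10 nt, followed by RPS22A at 12 nt. RPS28A and RPS28B, whose protein lies near the exit of the mRNA channel, had 13 nt each, and RPS19B and RPS30B had 15 nt each. The 5 longest belonged to RPS22B (564 nt), RPS29A (494 nt), RPS25B (474 nt), RPS29B (445 nt) and RPS26A (397 nt). RPS29 is a zinc-binding protein of the head of the subunit, RPS26 contacts mRNA upstream of the start codon, and RPS25 is needed for initiation at some viral internal entry sites. RPS25A (366 nt) and RPS26B (362 nt) were also in the long group.

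The sequence upstream of the start codon, read by gene name from the R64 reference, showed what the long 5' UTRs share. All 9 contained GTATGT more than 60 nt from the start codon. That is 9 of the 56 members (16.1%), against 1.01% of all mRNAs and 3 of 78 RPL mRNAs (3.85%). Among mRNAs with a 5' UTR above 300 nt, it was 9 of 9 RPS and 3 of 4 RPL mRNAs (75%). Over all such mRNAs it was 20 of 76 (26.3%), and 11 of 67 (16.4%) without the RPS members. For 8 of the 9 RPS mRNAs a TACTAAC followed, 32 to 71 nt before the start codon. RPS25B had no exact TACTAAC more than 60 nt downstream of a GTATGT in the 1000 nt searched. The donor regions are shown because the listed 5' ends are set beside them next. Each line gives 1 of 7 of these genes, its R64 position and 30 bases read 5' to 3', with the donor motif in capitals.
RPS22B, chrXII:855866-855895, plus strand: cattaacaacaaGTATGTggacgaggtgtg
RPS25A, chrVII:534768-534797, minus strand: gttagttttagtGTATGTatctataaattt
RPS25B, chrXII:796318-796347, minus strand: ctagttattaagGTATGTgcagttgattca
RPS26A, chrVII:148949-148978, minus strand: tagtcttaagtaGTATGTtaacgacacaaa
RPS26B, chrV:423579-423608, plus strand: caaacaggaaaaGTATGTtataagagcgaa
RPS29A, chrXII:898146-898175, plus strand: gtgtaaattaggGTATGTaccaagttctat
RPS29B, chrIV:341202-341231, minus strand: ctatagctaaatGTATGTggaaacgcggat

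Set beside the listed lengths, the R64 distance of the donor from the start codon put the listed transcript start at the donor itself in 5 of these 9 mRNAs. The 5' UTR of RPS22B started on the first base of GTATGT, at 564 nt in both measures. RPS26B (362 nt, donor at 361 nt) and RPS29A (494 and 493 nt) started 1 nt before it. For these 5, at most 1 listed base stands upstream of the donor. The other 4 began further out: RPS26A 19 nt before the donor, RPS29B 24 nt, RPS25B 38 nt and RPS25A 39 nt. The sources used here do not say how the 5' ends were assigned, and a role for splicing in these listed ends was not tested.

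The branch point regions of 3 of them are shown because they place the end of the stretch close to the start codon. TACTAAC is in capitals, within 29 bases.
RPS22B, chrXII:856396-856424, plus strand: cataagtataaTACTAACgtttcaaaaca
RPS29A, chrXII:898608-898636, plus strand: gaattcatttgTACTAACaacgtttccta
RPS29B, chrIV:340837-340865, minus strand: aaaaattataaTACTAACatttttctatt

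From the donor to the first AG at least 10 nt past the branch motif, the stretch measured 308 to 550 nt in the 8 mRNAs with both motifs, with a median of 364.5 nt. Coding introns of the same gene group had a median of 408.5 nt. Without that stretch the 5' UTR would be 14 nt in RPS22B, 54 nt in RPS25A, 29 nt in RPS26A, 1 nt in RPS26B, 6 nt in RPS29A and 36 nt in RPS29B. The median over all 56 members would be 24.5 nt instead of 28 nt. RPS0B is the exception among longer 5' UTRs: it had no GTATGT more than 60 nt from the start codon within its 200 nt, and it has a coding intron.

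**Figure D3:**
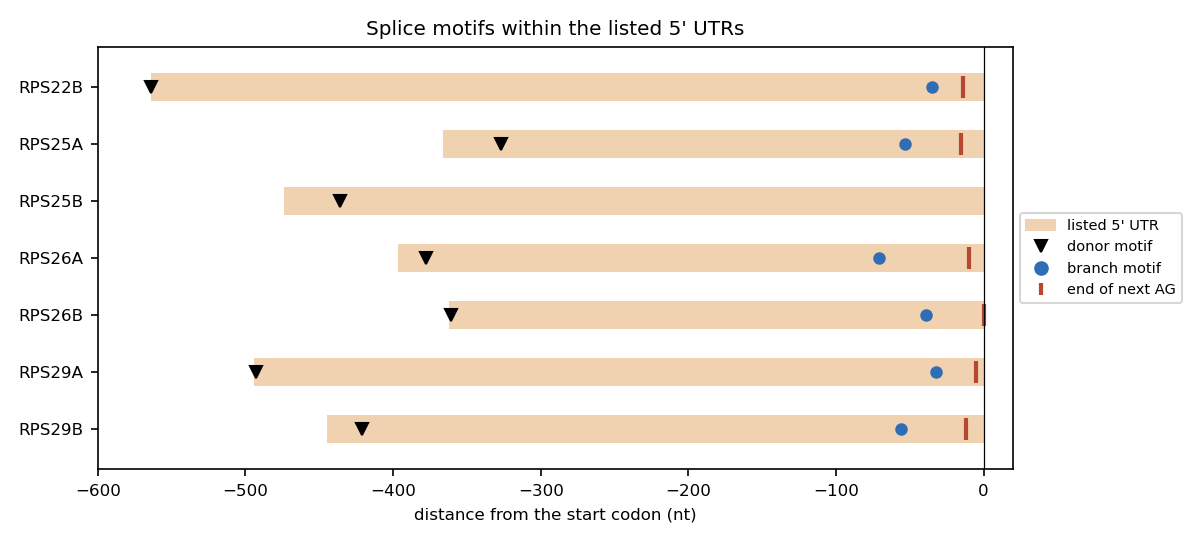
The 7 drawn RPS mRNAs whose listed 5' UTR (bar, in nt before the start codon at 0) holds a splice donor motif (triangle), with the branch motif (circle) and the end of the next AG (red tick). The triangle sits at the left end of the bar for RPS22B, RPS26B and RPS29A, and 19 to 39 nt inside it for the other 4; RPS25B has no circle.

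Introns in the coding region were listed for 36 of 56 RPS genes (64.3%, 50.4 to 76.6%), against 6.63% of all mRNAs and 53 of 82 RPL genes (64.6%). Each of the 36 had 1 intron. Their lengths ran from 256 to 551 nt with a median of 408.5 nt (365 to 435 nt, quartiles 351.5 and 456.25 nt). Of the 36, 33 lay between 300 and 550 nt. RPL introns had a median of 407 nt (55 introns, quartiles 384 and 461 nt). The 115 introns of other genes had a median of 96 nt (quartiles 82 and 140 nt). The 5 longest were those of RPS19B (551 nt), RPS27B (550 nt), RPS16A (544 nt), RPS13 (539 nt) and RPS11B (511 nt). RPS4A (256 nt), RPS4B (269 nt), RPS14A (307 nt) and RPS23A (320 nt) were among the 5 shortest. The intron took up a median of 40.0% of the transcript, from 22.6% in RPS4A and RPS4B to 62.3% in RPS30B, where 411 of 660 nt were intron.

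These introns stood near the start codon. The first coding exon had a median of 20.5 nt (7 to 45 nt) over the 36 genes, 13 nt (8 to 19 nt) over 53 RPL genes and 25 nt (20 to 31 nt) over the 199 intron-bearing genes of the annotation. The RPS interval holds both other medians. Of the 36 RPS genes, 14 had at most 10 nt of coding sequence before the intron. In 8 genes, among them RPS24A, RPS24B, RPS27A, RPS27B, RPS30A and RPS30B, the first coding exon was 3 nt, that is, the start codon alone. RPS24 is a protein whose human counterpart is mutated in Diamond-Blackfan anaemia, and RPS30 lies at the entry of the mRNA channel. The exon ends of these 3 pairs are shown because the start codon and the donor touch. In each 30 base line from R64 the first 6 bases of the intron are in capitals and the atg before them is the start codon.
RPS24A, chrV:306314-306343, plus strand: taagcagaaatgGTATGTtaaaaagtgctc
RPS24B, chrIX:232349-232378, minus strand: tcaataaaaatgGTATGTcgaacttgtact
RPS27A, chrXI:158604-158633, plus strand: tatcccaaaatgGTATGTtagtatccaata
RPS27B, chrVIII:148649-148678, minus strand: tagatcaatatgGTATGTgaaagagatatt
RPS30A, chrXII:713138-713167, minus strand: tacgcaaatatgGTACGTaatgcctcatta
RPS30B, chrXV:678773-678802, minus strand: ttatacaaaatgGTACGTtaatattgtgtt

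The intron lay between codons in 21 of the 36 genes, after the first base of a codon in 7 and after the second in 8. At the other extreme, the first exon was 144 nt in RPS7A and RPS7B, 133 nt in RPS22B and 90 nt in RPS0A and RPS0B.

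The donor of the 36 introns was GTATGT in 24 (66.7%), against 77.7% of the 206 introns of all genes. GTACGT stood in 9 (25%), against 8.25% of all introns, and GTATGA in 3 (8.33%), against 3.88%. TACTAAC was present in 33 (91.7%), against 87.4% of all introns, and the 3 without an exact match were RPS9A, RPS9B and RPS21A. The branch motif ended a median of 38 nt before the end of the intron (17 to 81 nt, 33 introns). All 36 ended in AG, with TAG in 20 and CAG in 16. The listed intron had the reference length in 34 of 36 genes and differed by 1 nt in RPS23A and RPS27A, and the coding length equalled that of the reference in all 56.

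Copies of a pair shared the place of the intron and not its length. Of 24 pairs, 17 had a coding intron in both copies, 6 in neither, and RPS22 in the B copy alone. In 16 of the 17 the first coding exon was equally long in A and B. The exception was RPS14, a platform protein that binds its own RPS14B pre-mRNA, with 7 nt before the intron in RPS14A and 10 nt in RPS14B. The whole coding region differed by the same 3 nt, at 414 nt in RPS14A and 417 nt in RPS14B. RPS9 was the only other pair with unequal coding lengths, 594 nt in RPS9A and 588 nt in RPS9B, and the first exon was 7 nt in both.

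Intron length differed in all 17 pairs, by 13 to 200 nt with a median of 84 nt. RPS27A had 350 nt and RPS27B 550 nt, the widest gap, while RPS4A had 256 nt and RPS4B 269 nt, the narrowest. RPS11A (339 nt) and RPS11B (511 nt) differed by 172 nt, and RPS19A (390 nt) and RPS19B (551 nt) by 161 nt. The A copy had the longer intron in 10 pairs and the B copy in 7. In the reference sequence, coding regions of the 24 pairs were 84.5 to 99.2% identical (median 92.75%), lowest in RPS27 and highest in RPS6. Introns of the 17 pairs aligned at 48.2 to 54.3% (median 52.5%). Introns of different RPS families, aligned the same way, gave a median of 52.3% over 613 combinations, which lies inside the range of the copies. No test was run on these identities, whose alignment settings were set with the data already in view.

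**Figure D4:**
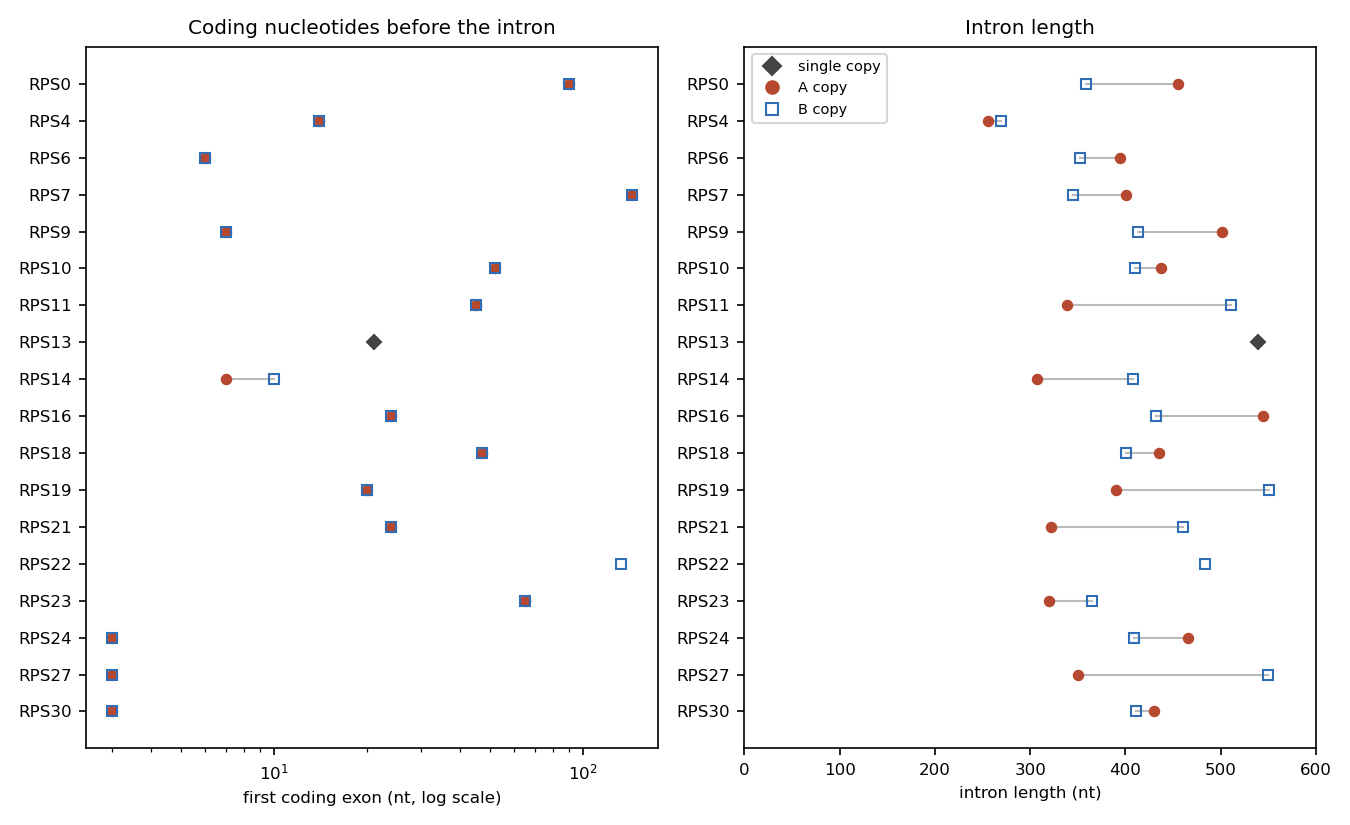
Length of the first coding exon (left, nt, log scale) and of the intron (right, nt) in 18 RPS families with a coding intron, for the single gene RPS13 (diamond), A copies (filled circles) and B copies (open squares). The first exon symbols coincide for every pair except RPS14, at 7 and 10 nt, while the intron symbols are 13 to 200 nt apart.

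The donor differed between copies in 4 of the 17 pairs, among them RPS6, RPS14 and RPS21. RPS6, the main phosphorylated protein of the subunit, had GTATGA in the A copy and GTATGT in the B copy, and RPS14 and RPS21 had GTATGT in A and GTACGT in B. The lines below show RPS6, RPS14 and RPS21, with RPS9, a pair in which both copies have GTACGT, for comparison. The first 6 bases of the intron are in capitals.
RPS6A, chrXVI:378372-378401, minus strand: tacatcatgaagGTATGAtttatgatacta
RPS6B, chrII:592751-592780, minus strand: gccatcatgaagGTATGTaatatcacccaa
RPS14A, chrIII:178196-178225, minus strand: ccgccatgtctaGTATGTttaatcacatag
RPS14B, chrX:73785-73814, plus strand: gaatggctaacgGTACGTgaaaggggtgat
RPS21A, chrXI:551669-551698, plus strand: aagggccaattaGTATGTtcgagaaatcta
RPS21B, chrX:157232-157261, minus strand: aagggtcaattaGTACGTaaattatagcag
RPS9A, chrXVI:404945-404974, plus strand: acaacatgccaaGTACGTcgttaatcttct
RPS9B, chrII:604503-604532, plus strand: caacaatgccaaGTACGTattagactatat

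The 4 families with a donor in the 5' UTR and no coding intron, among them RPS25, RPS26 and RPS29, also kept that structure in both copies. RPS22 differed most. RPS22A (YJL190C, chromosome 10, 74780 to 75313) was listed as a transcript of 534 nt with a 12 nt 5' UTR and no intron. RPS22B (YLR367W, chromosome 12, 855877 to 857376) was 1500 nt long, with a donor at the very start of its 564 nt 5' UTR and an intron of 483 nt after 133 nt of coding sequence. The small nucleolar RNA snR44, which guides modification of other RNAs, was listed at 856709 to 856919 on the same strand, inside the second of these stretches, the coding intron. RPS22B was the only member with a listed RNA inside it. Positions without an R64 label are copied from the annotation, and the sources used here give no build for them.

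Copies also differed in UTR length. At the 5' end the longer copy of a pair exceeded the shorter by a median of 1.33-fold (absolute log2 ratio 0.41, 0.29 to 1.05, 24 pairs), and at the 3' end by 1.88-fold (0.91, 0.62 to 1.29). The fold difference was larger at the 3' end in 17 of 24 pairs. The copies lay within 10 nt of each other in 10 of 24 pairs at the 5' end and in 0 of 24 at the 3' end. In RPL genes the median was 1.55-fold at the 5' end (32 pairs) and 1.47-fold at the 3' end (35 pairs). Neither copy was the longer as a rule: the A copy had the longer 5' UTR in 13 pairs, the B copy in 10, and RPS28 was equal, and at the 3' end A was longer in 11 and B in 13.

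The widest ratios of listed 5' UTRs were 47.0-fold in RPS22 (12 nt in A, 564 nt in B), 9.52-fold in RPS0 (21 nt in A, 200 nt in B) and 4.10-fold in RPS27 (10 nt in A, 41 nt in B). RPS19 followed at 3.20-fold (48 nt in A, 15 nt in B) and RPS30 at 2.73-fold (41 nt in A, 15 nt in B). The closest were RPS28 (13 nt in each), RPS10 (33 nt in A, 31 nt in B), RPS26 (397 nt in A, 362 nt in B), RPS6 (31 nt in A, 28 nt in B) and RPS29 (494 nt in A, 445 nt in B). These ratios hold for the 5' UTRs as listed. With the stretch from donor to AG subtracted, RPS22 would have 12 nt in A and 14 nt in B (log2 ratio -0.22), RPS26 29 nt in A and 1 nt in B (log2 ratio 4.86), and RPS29 6 nt in A and 36 nt in B (log2 ratio -2.58). RPS22 would then be among the closer pairs, and RPS25, RPS26 and RPS29 among the pairs furthest apart. In RPS25 only the A copy had a stretch to subtract, which leaves 54 nt in A and 474 nt in B (log2 ratio -3.13). The subtracted lengths depend on where the listed 5' end falls beside the donor. Listed bases before the donor numbered 0 in RPS22B, 1 in RPS26B and RPS29A, 19 in RPS26A and 24 in RPS29B.

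At the 3' end RPS28 stood out, with 101 nt in RPS28A and 643 nt in RPS28B, a 6.37-fold difference between copies that had identical 5' UTR and coding lengths. The protein is known to bind the 3' UTR of RPS28B mRNA and to promote its decay. RPS30 differed 3.90-fold (164 nt in A, 42 nt in B), RPS0 3.62-fold (60 nt in A, 217 nt in B), RPS26 3.15-fold (46 nt in A, 145 nt in B) and RPS27 2.99-fold (209 nt in A, 70 nt in B). Among the 5 most alike were RPS16 (85 nt in A, 98 nt in B), RPS14 (78 nt in A, 106 nt in B) and RPS21 (180 nt in A, 120 nt in B). RPS0B was the longer copy at both ends, whereas RPS27B was the longer at the 5' end and the shorter at the 3' end. Over the pairs, the same copy was longer at both ends in 13 and opposite copies in 10.

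**Figure D5:**
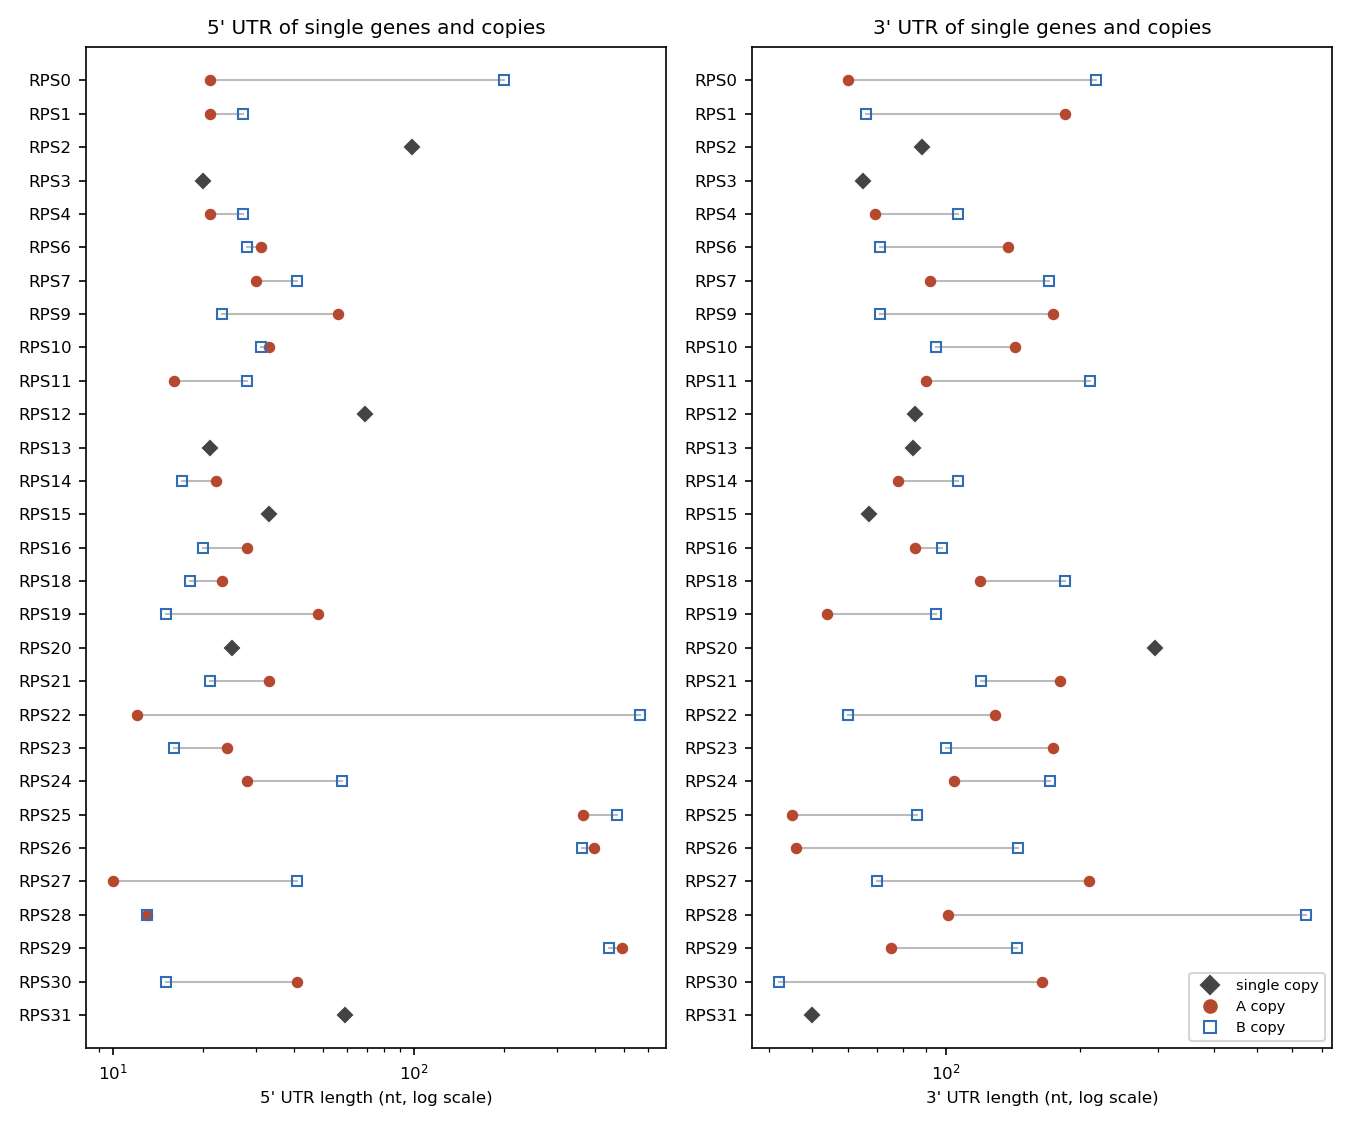
Listed 5' UTR (left) and 3' UTR (right) lengths in nt on log axes for 29 RPS families, with single genes as diamonds, A copies as filled circles and B copies as open squares joined by a line. At the 5' end RPS25, RPS26 and RPS29 have both symbols above 300 nt and RPS22 has 12 nt in A and 564 nt in B; at the 3' end the joined symbols are further apart, with RPS28B at 643 nt.

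Over all members, 3' UTRs had a median of 97.5 nt (85 to 119 nt, 56 mRNAs), against 106 nt (104 to 109 nt) over all 2882 mRNAs with a listed 3' UTR, and 32 of 56 (57.1%) lay below the median of all mRNAs, where 49.7% of all do. A 3' UTR of at least 150 nt was listed for 13 of 56 (23.2%), against 26.8% of all mRNAs. After RPS28B the longest were those of RPS20 (295 nt), RPS0B (217 nt), RPS11B (210 nt) and RPS27A (209 nt). The shortest were RPS30B (42 nt), RPS25A (45 nt), RPS26A (46 nt), RPS31 (50 nt) and RPS19A (54 nt). The 3' UTR was longer than the 5' UTR in 45 of 56 RPS mRNAs (80.4%), against 75.1% of all mRNAs.

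The 8 single genes were mostly without introns. RPS13 alone had a coding intron (1 of 8, 12.5%, 0.316 to 52.7%), whereas 35 of 48 duplicated genes had (72.9%, 58.2 to 84.7%). The second interval counts both copies of a pair, and 23 of 24 pairs had the same intron state, so it is too narrow. None of the 8 had a donor in the listed 5' UTR, against 9 of the 48 duplicated genes. Counting either kind, 43 of 48 duplicated genes held a donor. As a median the 5' UTR was 35 nt in single genes (rank interval 20 to 99 nt) and 28 nt in duplicated genes (22 to 33 nt), and the 3' UTR was 84.5 nt in single genes (50 to 295 nt) and 100.5 nt in duplicated genes (86 to 129 nt). With 8 genes the interval of the single genes spans their whole range, so no difference in UTR length between single and duplicated genes could be resolved.

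RPS2 and RPS3 flank the entry of the mRNA channel. RPS2 had the longest 5' UTR of the single genes, 99 nt, with a 3' UTR of 88 nt, and RPS3 the shortest, 20 nt, with 65 nt at the 3' end. RPS20, in the head, had a short 5' UTR of 25 nt and the longest 3' UTR of the 8, 295 nt, over a coding region of 366 nt. RPS12, in the beak of the head, had 69 and 85 nt. RPS15, needed for export of the assembling subunit, had 33 and 67 nt, and RPS13 had 21 and 84 nt. RPS31, made as a fusion with ubiquitin, had 59 and 50 nt. RPS2, RPS31 and the 9 members with a donor in the 5' UTR were the 11 members whose 3' UTR was the shorter of the UTRs. By place in the subunit, the 22 genes of head proteins had medians of 29.5 nt at the 5' end and 96 nt at the 3' end, and the 34 genes of the body and platform 28 and 102 nt. A coding intron was listed for 10 of the 22 head genes (45.5%, 24.4 to 67.8%) and 26 of the 34 body genes (76.5%, 58.8 to 89.3%). The share over all mRNAs was 6.63%, and the intervals of head and body genes overlap. Most single genes, among them RPS3, RPS12, RPS15, RPS20 and RPS31, are head genes without an intron. Place in the subunit and copy number were therefore not separated.

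Members were dispersed over 14 of the 16 chromosomes, with 8 on chromosome 12, and the copies of all 24 pairs lay on different chromosomes. Few of them overlapped a listed neighbour. Of the 56, 3 shared at least 1 nt with a neighbouring mRNA (5.36%, 1.12 to 14.9%), and all 3 were convergent pairs joined at their 3' ends. The share was 16.8% over all mRNAs and 7.32% over RPL genes (6 of 82). Among the 37 members with a listed neighbour next to them in the reference, it was 8.11% (1.7 to 21.9%), an interval that holds 16.8%. That alternative was chosen after seeing the data, and the matching share for all mRNAs was not counted. RPS18B overlapped YOX1, which encodes a homeodomain repressor, by 117 nt on chromosome 13 (222802 to 222918). RPS14B and RPS22A are neighbours themselves, transcribed towards each other, with 63 nt between their 3' ends. The listed neighbour was the next gene in the reference on 47 of 112 sides, and a gap on another side may hold a gene not used here.

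Both copies of some pairs had copies of the same ribosomal protein gene beside them. RPS16A lay divergent to RPL13B with 676 nt between the transcripts, and RPS16B divergent to RPL13A with 588 nt. RPS9B preceded RPL21A at 690 nt, and RPS9A preceded RPL21B at 390 nt. Just as YOX1 met RPS18B at its 3' end, the related repressor gene YHP1 faced RPS18A with 54 nt between the transcripts. RPS15 was divergent to RPP2A, a stalk protein gene, at 589 nt, and RPS22A to RPL39 at 591 nt. These adjacencies were picked out after the data had been seen, and how often such neighbours occur over all mRNAs was not counted.

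The base 3 nt before the start codon and the stop codon, read from R64, were alike in most RPS genes. An A stood 3 nt before the start codon in 50 of 56 RPS genes (89.3%), against 66.2% of all mRNAs and 66 of 82 RPL genes (80.5%). The 6 others were RPS0A, RPS2, RPS14A and RPS24A with G, RPS7B with C and RPS26B with T. Directly before the start codon, an A stood in 26 of 56 RPS genes (46.4%), against 45.8% of all mRNAs and 65 of 82 RPL genes (79.3%). The stop codon was TAA in 47 of 56 RPS genes (83.9%), against 48.5% of all mRNAs and 71 of 82 RPL genes (86.6%). TAG ended 7 genes, among them RPS3, RPS7A, RPS13, RPS28A and RPS30B, and TGA ended both RPS14 copies. Copies of RPS7, RPS28 and RPS30 therefore ended in different stop codons, TAG in 1 copy and TAA in the other.

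Rap1 is a general activator of ribosomal protein genes with a known consensus site. The form ACCCANACA, searched on both strands, was present within 600 nt upstream of the start codon in 16 of 56 RPS genes (28.6%), against 4.77% of all mRNAs and 31 of 82 RPL genes (37.8%). In the 16 it lay 155 to 458 nt upstream of the listed 5' end, with a median of 295.5 nt. None of the 9 RPS genes with a listed 5' UTR above 300 nt had a match. The 600 nt were counted from the start codon, so less sequence beyond the listed 5' end was searched in such genes. They made up 16.1% of RPS and 5.13% of RPL mRNAs, so the RPS and RPL shares do not compare equal stretches. A window counted from the listed 5' end was not tested. A match is a match of letters only, and other forms of the site were not searched.

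Genes that build the same subunit were set beside these members. Of 24 genes for small subunit assembly and binding factors, 18 were listed, with a median 5' UTR of 39 nt (16 genes, 4 to 209 nt) and a median 3' UTR of 86.5 nt (18 genes, 7 to 230 nt). At the 5' end 10 of the 16 lay below the median of all mRNAs, where 49.1% of all do. At the 3' end it was 13 of the 18, against 49.7% of all mRNAs. Only ASC1, whose product binds the head of the subunit, had a coding intron among these 18, of 273 nt. Over all mRNAs 6.63% had a coding intron. Of 7 transcription regulators of ribosomal protein genes, ABF1, HMO1, RAP1 and SFP1 were listed, with a median 5' UTR of 90 nt (18 to 333 nt), a median 3' UTR of 151 nt (52 to 1274 nt) and 0 coding introns. Of these 4, 1 lay below the median of all mRNAs at the 5' end and 1 at the 3' end, where 49.1% and 49.7% of all do.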

How the data were processed

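The labels describe 7 libraries, grouped by nuclease as 4 RNase V1 and 3 nuclease S1; their values and depth were not analysed here. As the design text says, an annotation deposited by the authors gives transcripts, exons, 5' UTRs and 3' UTRs as start and end positions on each chromosome. The sources used here give neither build nor mapping nor the rule for UTR ends. The values are positions, so the planned comparison of nucleases, which needs a value per library, was not run.

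A length is the end minus the start plus 1. Gaps of at least 10 nt between coding exons were taken as introns. The reading was tested on simulated transcripts. Sequence and gene order came from R64 (RefSeq), by gene name and at its own coordinates; 2999 of 3000 mRNA names matched. Motifs were searched exactly on the coding strand, GTATGT and TACTAAC in the 1000 nt upstream of start codons and in coding introns, with donor and branch more than 60 nt apart. The search for ACCCANACA (both strands) used 600 nt. Copies were aligned globally (match 2, mismatch -1, gap open -2, extension -0.5). Analyses used Python 3.11.15, pandas 2.3.3, scipy 1.17.1 and Biopython 1.88.

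Members and gene lists were chosen with earlier results of these data known. Named were all single genes, the 5 longest and shortest UTRs and introns, the 5 most and least different pairs at each end, pairs unlike in introns, members with upstream splice motifs, overlaps of at least 50 nt and hosts of a listed RNA. The donor variants, the start and stop codon contexts, ACCCANACA, the identities, the length thresholds, the neighbouring ribosomal protein genes, genes named for these features and 4 alternatives were chosen with the data already seen. Values of some genes named by that rule are not reported here or drawn, and the counts and medians include them.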

Additional observations from a re-analysis of the deposited data

How the results depend on the processing

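Over 10 values, 21 of 23 alternative settings left the value within its interval, and 2 moved it. Several of the 21 kept every member and intron, so they could not move the value and are no check on it. These were UTRs of at least 10 nt, both UTRs listed, intron gaps of at least 1 or 50 nt, and the first intron only. The median 5' UTR was 64 nt over the 20 members without a coding intron, against 28 nt over all 56; these 20 hold 8 of the 9 members with a donor in the 5' UTR. The share with an intron was 76.8% when 5' UTRs reaching both splice motifs counted as well, against 64.3% for coding introns. Leaving out the 9 members with GTATGT in the listed 5' UTR gave a median 5' UTR of 25 nt, an alternative chosen after seeing the data, and leaving out RPS28B gave a median 3' UTR of 97 nt. No paired analysis was possible because the values used are positions shared by all libraries, with none of their own for a library, and the comparison of RNase V1 with nuclease S1 was not run. A gene has 1 listed structure, so the error of a single UTR end is unknown.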
